A study of Danio rerio with 6 samples.

Results

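The genes followed here belong to the melanophore, the black pigment cell of fish, and were read across 3 sorted cell groups of the zebrafish trunk. They were found in the deposited count table by gene name, as mitfa, tyr, dct, tyrp1a, tyrp1b, pmela, oca2, slc24a5, slc45a2 and trpm1b, which makes 10 of 32520 genes, each with a single row. The cells came from wild-type embryos at 24 hours post fertilization that carried sox10:mRFP, which marks neural crest, and a prdm1a:eGFP transgene, which marks slow-twitch muscle and muscle pioneers. The first group was neural crest (replicates 3 and 4) of embryos that had been exposed to cyclopamine at 100 µM, with the exposure starting at 50% epiboly and lasting until 24 hours. The others were slow muscle (replicates 1 and 2) and neural crest (replicates 1 and 2) of untreated embryos. Cyclopamine, an alkaloid made by corn lilies, inhibits Smoothened, the protein that passes Hedgehog signals into the cell. No vehicle is stated for the untreated embryos, and the untreated crest libraries are titled slow-twitch although their tissue field names neural crest. Whether replicates were separate pools of embryos is not stated, and the spread that enters the p-values may thus be technical.

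Melanophores arise from neural crest cells that switch on the transcription factor Mitfa. Mitfa activates the genes of the melanosome, the organelle in which tyrosinase oxidises tyrosine and related enzymes carry the product on to melanin. The melanosome also needs a protein scaffold, and transporters that set its ions and pH, and loss of several of these genes gives pale or albino fish. In the zebrafish trunk, melanin first becomes visible at about the stage sampled here.

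Total counts were 20973884 and 18781774 in cyclopamine crest, 24358588 and 26441238 in slow muscle, and 17504692 and 15355583 in untreated crest. Levels are given in CPM, the read count relative to the TMM-scaled size of its library. Where no read was found, the limit is 3 counts, equal to 0.127 to 0.177 CPM in the different libraries. Reads without molecular identifiers are not independent molecules, so all such limits and intervals cover counting error only. Cyclopamine replicate 4 stood apart, with 13249 genes detected against 15281 to 17275 in the other 5 libraries. Of 4163 genes with at least 300 and fewer than 1000 counts in cyclopamine replicate 3, 5.50% had no count in replicate 4, against 0.125% of 3990 genes when untreated replicate 2 was set against untreated replicate 1 in the same way. Cyclopamine replicate 3 also lacked some genes. Of 3581 genes in that count range in cyclopamine replicate 4, 1.17% had no count in replicate 3. For untreated replicate 1 set against untreated replicate 2 it was 0.151% of 3982 genes. Fold changes of the 10 genes between the crest groups are given with and without cyclopamine replicate 4, which lacked more. The crest label held in all 4 crest libraries: sox10, the crest regulator whose promoter drives the red reporter, stood at 2616 and 4029 CPM in cyclopamine crest, at 1.90 and 4.22 CPM in slow muscle, against 3293 and 3169 CPM in untreated crest. Since sox10 is the gene of the sort, this checks the labels and cannot show how pure the sorted cells were.

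In cyclopamine crest 7 of the 10 genes lay below both untreated libraries in both replicates, and all 10 were read in untreated crest and stood at 5.70 CPM or less in slow muscle. The 3 exceptions were mitfa, oca2 and trpm1b. In the same comparison 16.6% of the 17701 genes tested were lower with no overlap between the groups. None of the 10 differences between cyclopamine and untreated crest passed edgeR's test (adjusted p between 0.835 and 1, n = 2 per group), nor did any of the 17701 genes, so percent called was 0 in both directions. At an unadjusted p under 0.05 edgeR gave 767 genes and none of the 10, the smallest p among them being 0.104. DESeq2 called 0.729% of 21255 genes lower and 0.743% higher, and again none of the 10 (smallest adjusted p 0.539). Since these are bulk libraries, fewer melanophore precursors among the sorted cells and less RNA per precursor cannot be told apart. Treated and untreated crest share no replicate number, and any difference in preparation between them cannot be told apart from cyclopamine.

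**Figure D1:**
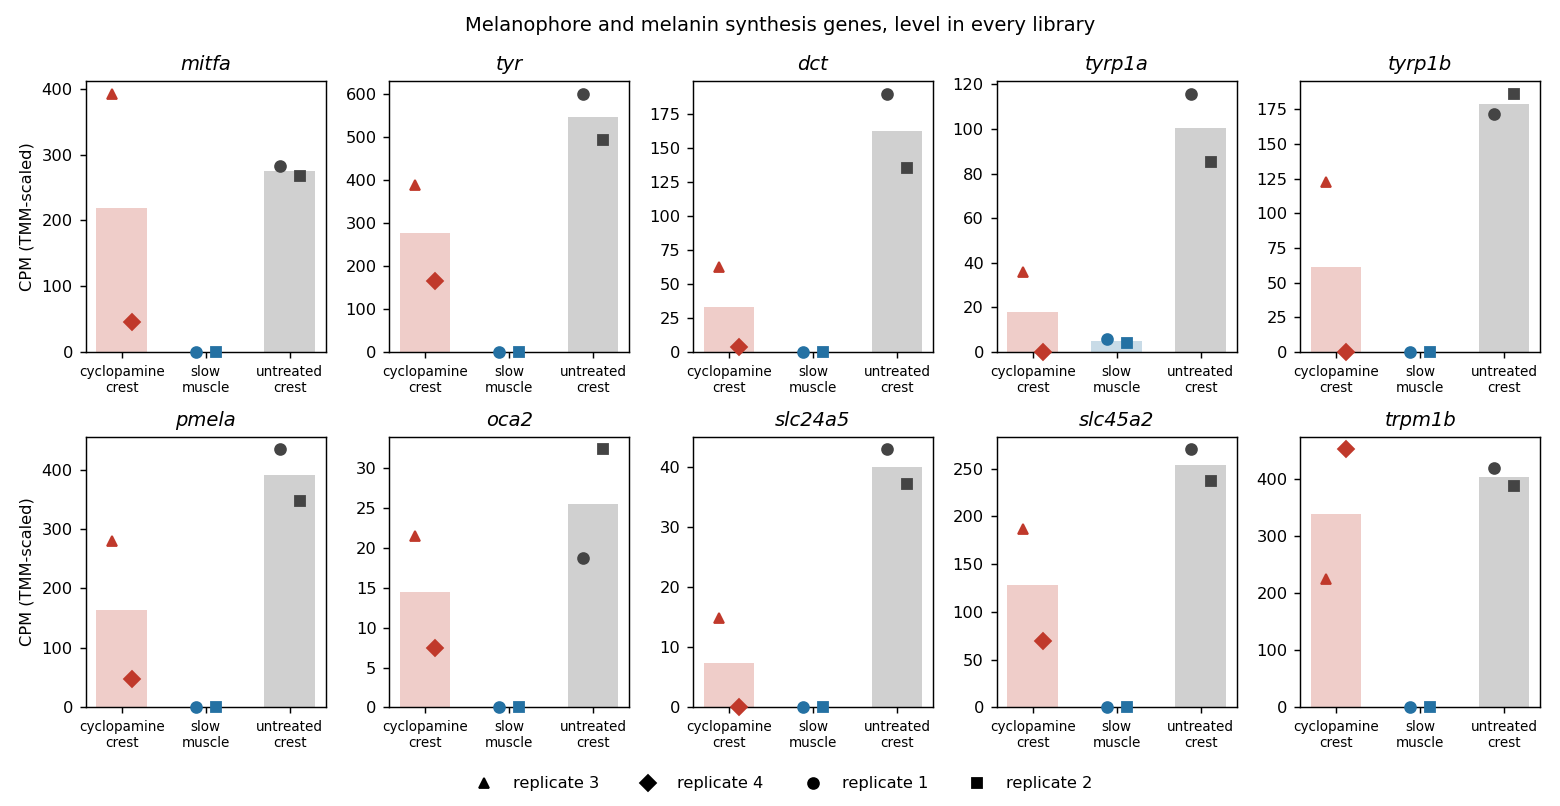
Level of each of the 10 genes in CPM in the 6 libraries, in cyclopamine crest (left), slow muscle (middle) and untreated crest (right). Bars are the mean of 2 libraries and points the single libraries. In 7 panels both cyclopamine points lie below both untreated points, and in slow muscle only tyrp1a stands visibly above 0.

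The regulator of the set had its cyclopamine libraries on either side of the untreated ones. mitfa (ENSDARG00000003732), which encodes the transcription factor without which no melanophores form, stood at 393 and 45.9 CPM in cyclopamine crest, at 0 counts in both slow muscle libraries and at 283 and 268 CPM in untreated crest. Cyclopamine replicate 3 was above both untreated libraries and replicate 4 below both, so the groups overlapped. The log2 fold change was -0.33 ± 0.95 (SE, edgeR adjusted p = 1). Without replicate 4 it was 0.51 (edgeR adjusted p = 0.917), and without replicate 3 it was -2.58 (edgeR adjusted p = 0.0191).

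The enzyme genes were lower in both cyclopamine libraries than in either untreated library. tyr (ENSDARG00000039077), which encodes tyrosinase, the rate-limiting enzyme of melanin synthesis, stood at 389 and 166 CPM in cyclopamine crest, at 0 in both slow muscle libraries and at 601 and 494 CPM in untreated crest. The groups of crest libraries did not overlap, and the log2 fold change of cyclopamine over untreated crest was -0.98 ± 0.49 (SE, edgeR adjusted p = 0.835). It was -0.49 without replicate 4 (edgeR adjusted p = 0.945) and -1.72 without replicate 3 (edgeR adjusted p = 0.0362).

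dct (ENSDARG00000006008) encodes dopachrome tautomerase, which acts downstream of tyrosinase and is an early mark of melanoblasts. It stood at 62.2 and 3.24 CPM in cyclopamine crest, at 0 in both slow muscle libraries and at 189 and 135 CPM in untreated crest. The 69 reads behind the value of replicate 4 give an exact Clopper-Pearson 95% interval of 2.52 to 4.10 CPM. Both cyclopamine libraries were below both untreated ones, at -2.31 ± 1.29 for the log2 fold change (SE, edgeR adjusted p = 0.835). Without replicate 4 the fold change was -1.38 (edgeR adjusted p = 0.396), and without replicate 3 it was -5.63 (edgeR adjusted p = 0.0109).

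tyrp1a and tyrp1b are duplicate copies of the tyrosinase-related protein 1 gene, whose product stabilises tyrosinase and acts late in the pathway. tyrp1a (ENSDARG00000029204) stood at 35.7 and 0 CPM in cyclopamine crest, at 5.70 and 3.89 CPM in slow muscle, and in untreated crest at 116 and 85.1 CPM. tyrp1b (ENSDARG00000056151) stood at 122 and 0 CPM in cyclopamine crest, at 0 in both slow muscle libraries and at 172 and 186 CPM in untreated crest. For both copies the order was untreated crest, cyclopamine replicate 3 and then replicate 4 with no read. The log2 fold changes of cyclopamine over untreated crest were -2.49 ± 2.02 for tyrp1a and -1.55 ± 2.31 for tyrp1b (SE, edgeR adjusted p = 0.910 and 1). Without replicate 4 they were -1.49 for tyrp1a and -0.55 for tyrp1b (edgeR adjusted p = 0.387 and 0.967). Without replicate 3 both copies were called lower, against no read in the remaining cyclopamine library (edgeR adjusted p = 0.00505 for each). The sources used here do not state how reads that map to several places were handled, and reads shared by the copies may have been split or dropped.

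The structural gene of the melanosome followed the enzymes. pmela (ENSDARG00000091298) encodes the premelanosome protein that forms the fibrils on which melanin is laid down. It stood at 280.5 and 48.3 CPM in cyclopamine crest, at 0 in both slow muscle libraries and at 434 and 347 CPM in untreated crest. The crest groups did not overlap, and the log2 fold change was -1.25 ± 0.83 (SE, edgeR adjusted p = 0.841). It was -0.48 without replicate 4 (edgeR adjusted p = 0.985) and -3.00 without replicate 3 (edgeR adjusted p = 0.0148). Its duplicate pmelb stood at 2.35 CPM in cyclopamine replicate 3 and at 0 in the other 5 libraries.

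Among the transporter genes 2 of 3 were below both untreated libraries in both cyclopamine libraries. slc45a2 (ENSDARG00000002593), which encodes a melanosomal sugar and proton carrier, stood at 187 and 69.7 CPM in cyclopamine crest, at 0 in both slow muscle libraries and at 270.1 and 237 CPM in untreated crest (log2 fold change -0.99 ± 0.54, edgeR adjusted p = 0.835). That fold change was -0.44 without replicate 4 (edgeR adjusted p = 1) and -1.86 without replicate 3 (edgeR adjusted p = 0.0376). slc24a5 (ENSDARG00000024771) is the gene of the golden mutant and encodes a potassium-dependent sodium and calcium exchanger. It stood at 14.8 and 0 CPM in cyclopamine crest, at 0 and 0.0422 CPM in slow muscle, and in untreated crest at 42.9 and 37.1 CPM. Its log2 fold change was -2.43 ± 2.08 (SE, edgeR adjusted p = 0.927), and -1.43 without replicate 4 (edgeR adjusted p = 0.829). Without replicate 3 it was called lower, against no read in the remaining cyclopamine library (edgeR adjusted p = 0.0125). These transporter genes had the order of the enzyme genes, with untreated crest above cyclopamine replicate 3 and replicate 3 above replicate 4.

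oca2 (ENSDARG00000061303), which encodes a melanosomal chloride channel, was low in every crest library. It stood at 21.5 and 7.51 CPM in cyclopamine crest, at 0 in both slow muscle libraries and at 18.7 and 32.4 CPM in untreated crest. Cyclopamine replicate 3 lay between the untreated libraries and replicate 4 below them (log2 fold change -0.81 ± 0.89, SE, edgeR adjusted p = 1). Without replicate 4 it was -0.25 and without replicate 3 it was -1.76 (edgeR adjusted p = 1 and 0.361).

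trpm1b departed from the other 9 genes. trpm1b (ENSDARG00000103476) encodes a cation channel of the melastatin family and is expressed in melanophores. It stood at 225 and 452 CPM in cyclopamine crest, at 0 in both slow muscle libraries and at 419 and 388 CPM in untreated crest. Here cyclopamine replicate 4 was the highest library and replicate 3 the lowest of the crest libraries, while in the other 9 genes replicate 3 stood above replicate 4. The log2 fold change was -0.26 ± 0.43 (SE, edgeR adjusted p = 1), and 0.17 without replicate 3 (edgeR adjusted p = 0.803) and -0.85 without replicate 4 (edgeR adjusted p = 0.547). In the RefSeq table for GRCz12tu klf13 overlaps trpm1b, and klf13 also had its highest level in cyclopamine replicate 4, at 13.9 and 57.7 CPM in cyclopamine crest, 8.65 and 22.9 CPM in slow muscle, against 13.3 and 11.1 CPM in untreated crest. Whether reads were shared between these genes was not tested, and the genome build used for counting is not stated. In cyclopamine replicate 4, 32.4% of all genes tested were above both untreated libraries.

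**Figure D2:**
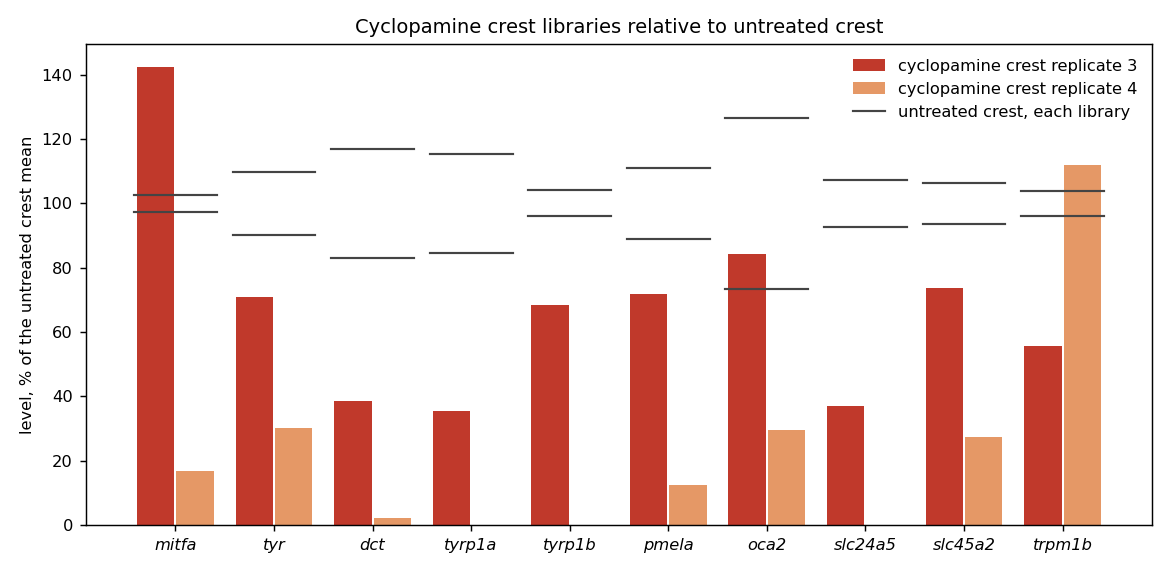
Level of each gene in the cyclopamine crest libraries (bars, replicate 3 left and replicate 4 right) as a percentage of the mean of the untreated crest libraries, whose single values are the horizontal lines. dct, tyrp1a and slc24a5 lie at 38.4%, 35.5% and 37.0% in replicate 3, the lowest of the 10 there, and at or near 0 in replicate 4.

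Read one library at a time, both cyclopamine libraries held less of most of the 10 transcripts. In replicate 3, 8 genes were below both untreated libraries, oca2 was between them and mitfa was above. The 8 stood at 35.5% to 73.6% of the untreated mean. Of all genes tested, 27.6% were below and 38% above both untreated libraries in replicate 3. In replicate 4, 9 genes were below both untreated libraries and trpm1b was above, while 39.3% of all genes tested were below and 32.4% above. The 9 stood at 0 to 30.2% of the untreated mean in replicate 4.

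Leaving out a cyclopamine library changed the calls. Without replicate 3, 8 of the 10 genes were called lower by edgeR, all but oca2 and trpm1b (adjusted p between 0.00505 and 0.0376), while 4.87% of all genes tested were called lower. Without replicate 4 none of the 10 was called (adjusted p between 0.387 and 1), and 0.0346% of all genes were called lower. In both cases the single remaining cyclopamine library was assumed to vary like the other groups. The median log2 fold change over the 10 genes was -1.12 with both libraries and -0.52 without replicate 4, where that of all genes tested was 0 in either fit. Without replicate 3 it was -2.79, beside -0.17 for all genes tested.

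The cyclopamine replicates differed from each other by more than the untreated ones did. Among 9087 genes with at least 10 CPM in cyclopamine replicate 3, the median log2 difference of replicate 4 from replicate 3, with a pseudocount of 1 CPM, was -0.32, and the lowest 5% lay below -3.63. tyrp1b (-6.95), tyrp1a (-5.20), slc24a5 (-3.98) and dct (-3.90) were within those lowest 5%, and mitfa was at -3.07. In untreated crest the differences of replicate 2 from replicate 1 over the same 10 genes ran from -0.49 for dct to 0.76 for oca2. tyrp1b had 2702 reads in cyclopamine replicate 3 and none in replicate 4, which held for 15 of the 2642 genes with at least 1000 and fewer than 3000 reads in replicate 3.

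**Figure D3:**
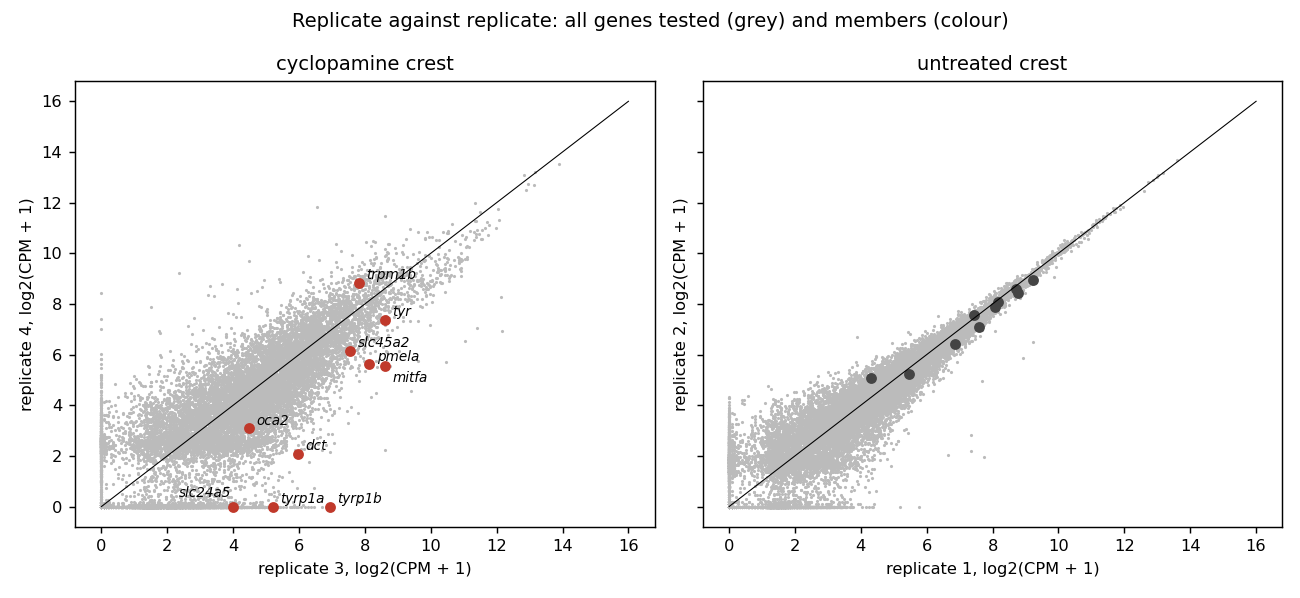
Each gene's level in one replicate against the other, as log2(CPM + 1), in cyclopamine crest (left) and untreated crest (right). Grey points are all 17701 genes tested, coloured points the 10 melanophore genes and the line marks equal levels. In cyclopamine crest 9 of the 10 lie below the line and trpm1b above it. In untreated crest the 10 lie nearer to it, with oca2 the farthest at a log2 difference of 0.76.

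The melanin genes were also set against sox10, the gene of the sort. Per 100 CPM of sox10, mitfa stood at 15.01 and 1.14 CPM in cyclopamine crest and at 8.59 and 8.47 CPM in untreated crest. On the same scale tyr stood at 14.9 and 4.11 CPM in cyclopamine crest, against 18.2 and 15.6 CPM in untreated crest. dct stood at 2.38 and 0.0804 CPM per 100 CPM of sox10 in cyclopamine crest, against 5.75 and 4.25 CPM in untreated crest. For tyr and dct both cyclopamine libraries stayed below both untreated ones on this scale, and for mitfa they lay on either side. Both were also below for tyrp1a, tyrp1b, pmela, slc24a5, slc45a2 and trpm1b, the last at 8.59 and 11.2 CPM, against 12.7 and 12.2 CPM in untreated crest. oca2 overlapped, at 0.822 and 0.187 CPM, against 0.568 and 1.02 CPM. sox10 itself was 2616 and 4029 CPM in cyclopamine replicates 3 and 4, which lowers the ratios of replicate 4. Before that division trpm1b in replicate 4 stood above both untreated libraries, at 452 CPM against 419 and 388 CPM. The share of all genes below both untreated libraries on the sox10 scale was not computed.

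Followed against tyr, the genes fell into different patterns. For each 100 CPM of tyr, dct had 16.005 and 1.96 CPM in cyclopamine crest, against 31.5 and 27.3 CPM in untreated crest. slc24a5 had 3.81 and 0 CPM per 100 CPM of tyr in cyclopamine crest, against 7.14 and 7.51 CPM in untreated crest, and tyrp1a had 9.18 and 0 CPM, against 19.3 and 17.2 CPM. These 3 genes were lower relative to tyr in both cyclopamine libraries. slc45a2 had 48.0 and 42.1 CPM per 100 CPM of tyr in cyclopamine crest, against 45.0 and 48.1 CPM in untreated crest. pmela had 72.1 and 29.2 CPM on that scale in cyclopamine crest, against 72.2 and 70.2 CPM in untreated crest. The ratio of slc45a2 to tyr in cyclopamine replicate 3 lay between those of the untreated libraries, and in replicate 4 below both. The ratio of pmela had the same order. So did tyrp1b, with 31.5 and 0 CPM in cyclopamine crest, against 28.6 and 37.7 CPM in untreated crest. oca2 had 5.53 and 4.54 CPM in cyclopamine crest, both between the 3.12 and 6.55 CPM of untreated crest. For mitfa it was 101 and 27.7 CPM, against 47.1 and 54.3 CPM in untreated crest. For trpm1b it was 57.8 and 273 CPM, against 69.8 and 78.5 CPM in untreated crest. These ratios are followed across libraries and do not rank the genes, since counts were not divided by transcript length.

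Slow muscle had little or none of these transcripts, and 6 of the 10 genes were called lower than in untreated crest by edgeR, where 0.876% of all genes tested were called lower. They were mitfa (adjusted p = 0.0365), tyr (0.0132), pmela (0.0268), oca2 (0.0366), slc45a2 (0.0136) and trpm1b (0.0119). All 6 had 0 counts in both slow muscle libraries. With 3 counts per slow muscle library as the limit, which rests on counting error alone, tyr was at least 3842-fold, trpm1b at least 2832-fold, pmela at least 2739-fold, mitfa at least 1934-fold, slc45a2 at least 1781-fold and oca2 at least 179-fold lower in slow muscle. The limit was smallest for oca2, which had the lowest level of the 6 in untreated crest.

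The other 4 were also below both untreated libraries in both slow muscle libraries but did not pass. Such a gap without overlap held for all 10, and for 27.3% of all genes tested. dct and tyrp1b had 0 counts in slow muscle, at least 1138-fold and 1255-fold lower (edgeR adjusted p = 0.0601 and 0.188). slc24a5 had a single read in slow muscle against 1441 in untreated crest, a ratio of 1712 in favour of untreated crest with an exact 95% counting interval of 307 to 67680 (edgeR adjusted p = 0.156). tyrp1a was the only one of the 10 with more than 1 read in slow muscle, at 4.79 ± 1.28 CPM in slow muscle, against 100.4 ± 21.7 CPM in untreated crest (SD, n = 2 each), which gave -4.39 ± 2.204 for the log2 fold change (SE, edgeR adjusted p = 0.327). Its 108 and 92 reads there give exact 95% intervals of 4.67 to 6.88 and 3.13 to 4.77 CPM, while its copy tyrp1b had none. All groups share a single estimate of the spread, and without cyclopamine replicate 3 or without replicate 4 all 10 genes were called lower (edgeR adjusted p for tyrp1a 0.00117 and 0.000693), where 4.98% and 5.05% of all genes were. Leaving out untreated replicate 1 or untreated replicate 2 gave 5 of the 10 in each case. DESeq2 called 9 of the 10, all but tyrp1a (adjusted p = 0.0915), and 4.15% of all genes lower.

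Slow muscle was also lower than cyclopamine crest for the same 6 genes (edgeR adjusted p between 0.0152 and 0.0440, with 0.797% of all genes called lower and 1.38% higher). The groups did not overlap for these 6 and for dct (adjusted p = 0.0832), a gap found for 21.8% of all genes, and overlapped for tyrp1a, tyrp1b and slc24a5, which had no read in cyclopamine replicate 4. tyrp1a averaged 4.79 ± 1.28 CPM in slow muscle, against 17.8 ± 25.2 CPM in cyclopamine crest (SD, n = 2 each), and its adjusted p was 0.659. Without cyclopamine replicate 4 all 10 genes were called lower, where 3.28% of all genes were. Without replicate 3, 7 were called lower and tyrp1a was called higher in slow muscle, against 0 reads in replicate 4, with 5.77% of all genes called lower and 12.2% higher. Confined to the 4 libraries of slow muscle and cyclopamine crest, edgeR called none of the genes tested. At an unadjusted p under 0.05 it gave 3258 genes and 7 of the 8 genes of the set that were tested there. DESeq2 on all 6 libraries called 9 of the 10 lower. Of 21255 genes it called 1007 lower and 1730 higher. The mean of both libraries ran from slow muscle through cyclopamine crest to untreated crest for all 10 genes, an order found for 17.5% of all genes tested. It did not hold in every cyclopamine library, since mitfa in replicate 3 and trpm1b in replicate 4 stood above untreated crest and tyrp1a, tyrp1b and slc24a5 had no read in replicate 4. The crest groups were not shown to differ for any of the 10 with both cyclopamine libraries in the fit. The comparisons with untreated crest share its libraries, and those with slow muscle share theirs.

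Other genes of the pigment cell were read from lists. Of 12 tested regulators and signals of the melanophore, none was called between cyclopamine and untreated crest. crestin, a transcript specific to fish neural crest, stood at 1194 and 1012 CPM in cyclopamine crest and at 656 and 809 CPM in untreated crest (edgeR adjusted p = 0.835). tfec, a close relative of mitfa expressed in early pigment progenitors, stood at 435 and 210.3 CPM in cyclopamine crest and at 297 and 256 CPM in untreated crest. kita, which encodes the receptor that melanoblasts need to migrate and survive, stood at 65.2 and 12.6 CPM in cyclopamine crest and at 80.2 and 65.2 CPM in untreated crest. tfec shared with mitfa a level above both untreated libraries in cyclopamine replicate 3 and below both in replicate 4. The median log2 fold change of the list was -0.32, beside 0 for all genes tested, and -0.24 without cyclopamine replicate 4.

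In slow muscle 6 of these 12 regulators were called lower than in untreated crest and none higher, where 0.876% of all genes were called lower and 1.67% higher. Besides sox10 they included tfap2e, which encodes an AP2 factor of melanophore differentiation, at 0.296 ± 0.418 CPM in slow muscle, against 199.6 ± 0.571 CPM in untreated crest (edgeR adjusted p = 0.0337). The neuregulin receptor gene erbb3b, needed for crest-derived glia and pigment stem cells, stood at 6.61 ± 6.07 CPM in slow muscle, against 643 ± 29.1 CPM in untreated crest (edgeR adjusted p = 0.0327).

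Of 14 tested genes of melanosome structure, 10 had a negative fold change in cyclopamine crest, beside 48.2% of all genes tested, and none was called (median log2 fold change -0.48, and -0.13 without replicate 4). gpr143, the ocular albinism gene that encodes a receptor of the melanosome membrane, stood at 247 and 90.7 CPM in cyclopamine crest and at 168 and 134 CPM in untreated crest. tspan36, which encodes a tetraspanin, stood at 427 and 350.5 CPM in cyclopamine crest and at 653 and 600.2 CPM in untreated crest (edgeR adjusted p = 0.835). In slow muscle 3 were called lower than in untreated crest and none higher, where 0.876% and 1.67% of all genes were. A negative fold change there held for 9 of the 14, beside 47.3% of all genes. tspan36 stood at 18.5 ± 2.58 CPM in slow muscle, against 626 ± 37.0 CPM in untreated crest (edgeR adjusted p = 0.0119). rab32a, whose product directs enzymes to the melanosome, stood at 11.4 ± 6.18 CPM in slow muscle, against 159.9 ± 11.1 CPM in untreated crest (edgeR adjusted p = 0.0346). The tetraspanin gene tspan10 stood at 0 counts in slow muscle and 23.4 ± 6.48 CPM in untreated crest (edgeR adjusted p = 0.0496).

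Of 28 genes of melanosome biogenesis and transport, which encode subunits of the sorting complexes and the motors that move the organelle, 21 had a negative fold change in cyclopamine crest and none was called (median -0.20, and -0.07 without replicate 4). In slow muscle 4 were called lower than in untreated crest and none higher, where 0.876% and 1.67% of all genes were. rab27b, a Rab GTPase gene of organelle transport, had 0 counts in slow muscle and 77.2 ± 9.24 CPM in untreated crest (edgeR adjusted p = 0.0132). Its relative rab27a, which tethers melanosomes to actin in mammals, stood at 8.22 ± 4.32 CPM in slow muscle, against 66.8 ± 0.316 CPM in untreated crest (edgeR adjusted p = 0.0470). The sorting complex genes hps4 (10.3 ± 0.353 CPM in slow muscle, against 65.1 ± 13.0 CPM in untreated crest) and dtnbp1a (12.6 ± 6.19 CPM in slow muscle, against 84.8 ± 20.6 CPM in untreated crest) were lower too (edgeR adjusted p = 0.0401 and 0.0485).

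The vacuolar proton pump acidifies early melanosomes, and zebrafish that lack its subunits are pale. Of its 22 tested genes 20 had a negative fold change in cyclopamine crest, beside 48.2% of all genes tested, and 12 were lower with no overlap, beside 16.6% of all genes. None was called (median -0.46, and -0.12 without replicate 4). All 22 were below both untreated libraries in cyclopamine replicate 4, and 12 were in replicate 3, where 39.3% and 27.6% of all genes were. Without cyclopamine replicate 3 edgeR called none of the 12 regulators lower, 1 of the 14 genes of melanosome structure, 2 of the 28 of biogenesis and transport and 2 of the 22 of the pump, beside 4.87% of all genes called lower in that fit. atp6v0ca stood at 443 ± 147 CPM in cyclopamine crest and 614 ± 6.40 CPM in untreated crest (edgeR adjusted p = 0.931). In slow muscle the pump genes did not share a direction, with 1 called higher and 1 lower, beside 1.67% and 0.876% of all genes. atp6v0a1a was higher, at 499 ± 185 CPM in slow muscle, against 47.1 ± 5.19 CPM in untreated crest (edgeR adjusted p = 0.0195), and atp6v1ab was lower, at 31.8 ± 4.52 CPM in slow muscle, against 232 ± 27.6 CPM in untreated crest (edgeR adjusted p = 0.0220).

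Most genes listed for the other pigment cells were also below untreated crest in both cyclopamine libraries, without being called. This held for 10 of 12 tested xanthophore genes and 8 of 12 tested iridophore genes, beside 16.6% of all genes. The 8 included the purine synthesis genes gmps, gart, impdh1b, adsl, pfas and prps1a. The xanthophore-listed mycbp2 was higher in both, at 177 and 439 CPM in cyclopamine crest and 171 and 146 CPM in untreated crest. The xanthophore-listed csf1ra overlapped, at 94.9 and 215 CPM in cyclopamine crest, against 130 and 127 CPM in untreated crest. So did the iridophore-listed ltk (66.1 and 184 CPM, against 71.3 and 83.2 CPM), alx4a (205 and 59.3 CPM, against 173 and 232 CPM), atic and ppat. Without cyclopamine replicate 3 the median log2 fold change was -1.62 for the xanthophore and -1.75 for the iridophore genes. Lists of other tissues were as low in that fit, at -2.07 for epidermal and -2.39 for erythroid genes, beside -0.17 for all genes tested. The neural crest and melanoblast list was at 0.33. Without replicate 4 the medians were -0.71 (xanthophore), -0.31 (iridophore), 0.23 (epidermal) and -0.23 (erythroid), beside 0 for all genes tested. The summed level of 14 genes listed for xanthophores, the yellow pigment cells, was 4144 and 2598 CPM in cyclopamine crest and 7022 and 6781 CPM in untreated crest. gch2, which starts pteridine synthesis in those cells, stood at 1015 and 143 CPM in cyclopamine crest and at 1895 and 1902 CPM in untreated crest (edgeR adjusted p = 0.968). The sum of 13 genes listed for iridophores, the reflective cells that store purines, was 4197 and 1932 CPM in cyclopamine crest and 5552 and 5515 CPM in untreated crest. The purine synthesis gene impdh1b averaged 1281 ± 914 CPM in cyclopamine crest and 2799 ± 59.5 CPM in untreated crest (SD, n = 2 each, edgeR adjusted p = 0.835). The sum of the 10 melanophore genes was 1730 and 792 CPM in cyclopamine crest and 2545 and 2210 CPM in untreated crest. In cyclopamine replicate 4 trpm1b alone made up 57.0% of that sum. Its part was 13.0% in cyclopamine replicate 3 and 16.5% and 17.6% in untreated crest. All 3 sums were lower in both cyclopamine libraries, and lowest in replicate 4. The sum of 14 genes listed for neural crest and melanoblasts was 7569 and 9227 CPM in cyclopamine crest and 7661 and 7229 CPM in untreated crest. This sum did not follow them, though its list also holds pigment progenitor genes such as tfec and kita. Of its 13 tested genes 4 were lower without overlap and 3 higher, beside 16.6% and 14.6% of all genes. sox10, the gene of the sort, gave 2616 and 4029 CPM of the sum in cyclopamine crest, against 3293 and 3169 CPM in untreated crest.

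**Figure D4:**
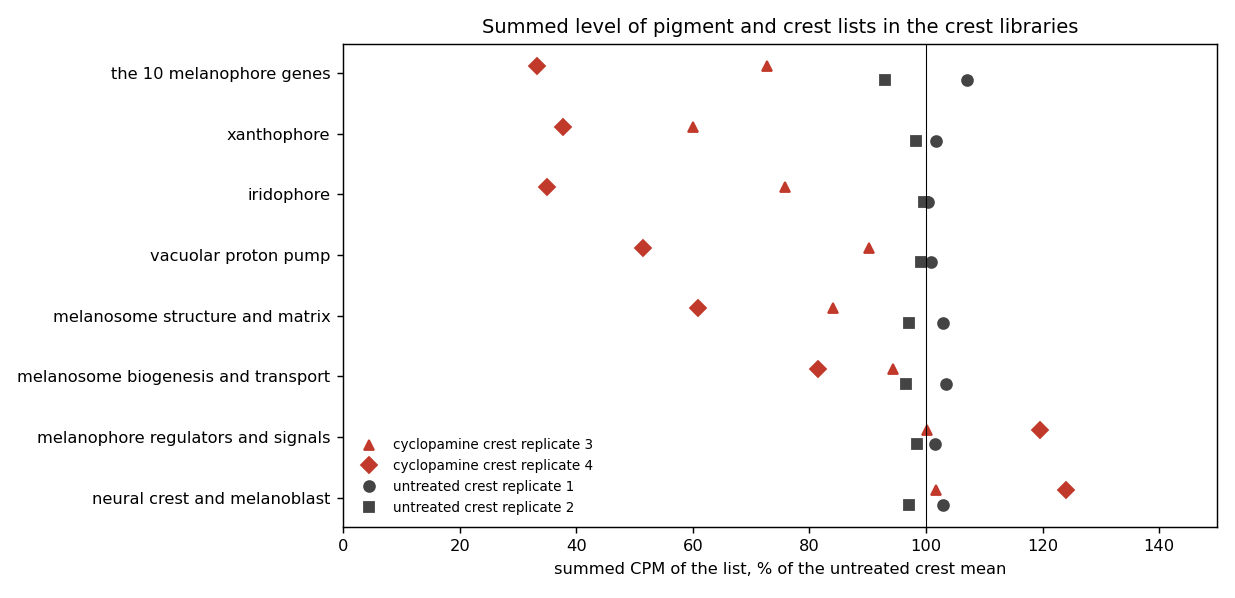
Summed CPM of 8 gene lists in each crest library, as a percentage of the mean of the untreated crest libraries, with cyclopamine libraries in red and untreated libraries in dark grey. The 3 pigment cell lists stand at 60.1% to 75.8% in cyclopamine replicate 3 and at 33.3% to 37.6% in replicate 4, while the neural crest and melanoblast list stands at 102% and 124%. In cyclopamine replicate 4 trpm1b made up 57.0% of the sum of the 10 melanophore genes.

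Markers of other tissues were read beside these results. In cyclopamine replicates 3 and 4 the sums were 2089 and 1010 CPM for 12 epidermal genes, 377 and 194 CPM for 10 fast muscle genes and 690 and 440 CPM for 11 genes of the neural tube and neurons. The same sums in untreated replicates 1 and 2 were 1509 and 1328 CPM, 61.0 and 71.5 CPM, and 466 and 417 CPM. The fast muscle sum was thus higher in both cyclopamine libraries, with 3 of 10 genes above without overlap (14.6% of all genes tested) and none called. In replicate 4 tnnt3b, a fast troponin gene, made up 139 of the 194 CPM, and 3 of the 10 genes were below both untreated libraries. The part of these tissues in the pigment gene levels was not tested. The sum of 8 slow muscle genes was 104 and 203 CPM in cyclopamine crest, against 196 and 198 CPM in untreated crest. prdm1a, a regulator of slow fibre fate, gave 103 and 203 CPM of it in cyclopamine crest and 145 and 132 CPM in untreated crest. Which cells gave its reads in the crest libraries was not tested. The slow myosin gene smyhc1 stood at 0.951 and 0 CPM in cyclopamine crest, against 47.1 and 59.0 CPM in untreated crest. In slow muscle replicates 1 and 2 the slow muscle sum was 56052 and 26692 CPM. The epidermal sum there was 9503 and 13343 CPM, and that of 8 endothelial genes 1607 and 1769 CPM, against 227 CPM in each untreated crest library. The neural tube sum was lower than in untreated crest, at 282 and 322 CPM. Which cells gave the tyrp1a reads in slow muscle was not tested. The sum of 8 erythroid genes was 117 and 38.5 CPM in cyclopamine crest, against 106 and 174 CPM in untreated crest. The retinal pigment epithelium is the other tissue of the embryo that makes melanin. Of 16 genes listed for it and the eye, 8 had no read in any library, among them otx2a, otx2b, rlbp1b and best1. rpe65a, a visual cycle gene of that tissue, stood at 1.63 and 0 CPM in cyclopamine crest, at 0 in slow muscle and at 1.84 and 1.95 CPM in untreated crest. The single eye-listed gene above 10 CPM, bhlhe40, is expressed in many tissues. The Hedgehog target gene gli1 stood at 22.2 ± 7.61 CPM in cyclopamine crest and 45.2 ± 2.27 CPM in untreated crest (SD, n = 2 each, edgeR adjusted p = 0.835). Of 5 tested Hedgehog targets 4 were lower without overlap, beside 16.6% of all genes, and none was called. The exception was ptch1, at 35.0 and 55.5 CPM in cyclopamine crest, against 51.3 and 53.1 CPM in untreated crest.

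The genes most like the 10 were sought by the root mean square difference between log2(CPM + 1) profiles, each centred on its own mean, and the mean profile of the 10. Over the 6 libraries the nearest were mocos, pnp4a, pah, slc2a15b, syngr1a and akr1b1.1, at 0.128 to 0.564 log2 units. mocos, which encodes the sulfurase that activates the cofactor of xanthine dehydrogenase, stood at 107 and 12.9 CPM in cyclopamine crest, at 0 in both slow muscle libraries and at 168 and 169.9 CPM in untreated crest. pnp4a, a purine enzyme gene used as an iridophore marker, stood at 66.8 and 4.88 CPM in cyclopamine crest, at 0 in slow muscle and at 94.1 and 77.6 CPM in untreated crest. pah encodes phenylalanine hydroxylase, which makes tyrosine, and stood at 189 and 14.4 CPM in cyclopamine crest, at 2.11 and 1.90 CPM in slow muscle, and in untreated crest at 323 and 311 CPM. These 3 genes had untreated crest highest, cyclopamine replicate 3 next, replicate 4 lower and slow muscle lowest. They were picked for likeness to the mean profile, so that order follows from the choice. Among the 10, tyr, dct, pmela and slc45a2 had it in every library. Over the 4 crest libraries alone, among genes with at least 50 CPM on average there, the nearest were mocos, acsl4a, gch2, gpatch4, CABZ01032488.1 and pnp4a, at 0.0637 to 0.240 log2 units. The 10 themselves lay 0.234 (pmela) to 1.74 (tyrp1b) log2 units from their own mean profile over those 4 libraries.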

How the data were processed

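Per the labels' protocols, polyA RNA of cells sorted from dissected trunks was prepared with a stranded kit and sequenced in 6 libraries, 2 per group. The authors deposited raw read counts per Ensembl gene. The tools, per the submitters' processing notes, include STAR, featureCounts, Subread and DESeq2. Genome build, annotation, strand setting and treatment of multi-mapped reads are not stated in the sources used here. The deposited log2 table was not used here.

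Counts were tested with edgeR 4.0.16 (quasi-likelihood) in R 4.3.3, with TMM and filterByExpr (minimum count 10, total 15), which kept 17701 genes and all 10 members through their crest counts. All 6 libraries entered 1 fit with 3 groups and no covariate. Tests were two-sided, with Benjamini-Hochberg adjustment across every gene tested and a threshold of 0.05. The standard error was derived from the test statistic. DESeq2 1.42.0 was an alternative, with scaling, filters, left-out libraries and a replicate block. The 10 genes and all lists were chosen with earlier results of these data known, and 7 list entries were not matched. Named were all 10 members, sox10, per pathway list and comparison up to 4 called genes with the largest change at 10 CPM or more, otherwise the 2 most abundant, and the 6 nearest profiles. For other tissues' lists mainly sums are given. tfec, kita, pmelb, klf13, mycbp2, tnnt3b, prdm1a, smyhc1, ptch1 and the eye genes were chosen after their values were seen. The same holds for csf1ra, ltk, alx4a, atic, ppat, gmps, gart, adsl, pfas and prps1a. Gene overlap was read from RefSeq, assembly GRCz12tu, names only.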

Additional observations from a re-analysis of the deposited data

How the results depend on the processing

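Cyclopamine against untreated crest gave 0 of the 10 genes under RLE, upper quartile and total count scaling, both other filters, DESeq2 and a fit of 4 libraries. Leaving out each library in turn gave 0 to 8 of the 10 and 0 to 1366 of all genes, the highest without cyclopamine replicate 3. Over all genes, no filter gave 21 calls and DESeq2 313. For slow muscle against untreated crest, 6 of 10 became 10 in the fit of the 4 libraries compared (2368 of all genes, against 451) and 5 to 10 with each library left out (108 to 3013 of all genes, 108 without untreated replicate 1 and again without replicate 2 and 281 without slow muscle replicate 1). No filter gave 1408 and DESeq2 2715. With the replicate number as a block, 10 of 10 and 2053 genes were called. The labels do not say that these numbers mark shared embryos, so they were not taken to pair the libraries. Deviations of same-numbered libraries correlated at 0.0148 across genes, a value from 2 libraries per group that cannot show whether embryos were shared. For slow muscle against cyclopamine crest, 6 of 10 became 0 of the 8 tested in the 4 libraries compared (0 of all genes, against 385) and 5 to 10 with each library left out (204 to 3581 of all genes, the lowest without slow muscle replicate 1), and no filter gave 1277 and DESeq2 2737. The cause was not tested. A threshold of 0.1 gave 0, 7 and 7 of the 10, and the share of all genes at that threshold was not computed. Of 398 refitted fold changes of single genes 342 kept their direction and side of the threshold, whether called or not. Another 40 became called, 11 were no longer called, and 4 reversed. The fold change of tyrp1b for slow muscle against cyclopamine crest became 0 without cyclopamine replicate 3, with no read left in either group. For cyclopamine against untreated crest, the log2 fold change of mitfa ran from -2.58 to 0.51 with each library left out (positive without cyclopamine replicate 4), and that of trpm1b from -0.85 to 0.17 (positive without replicate 3). For slow muscle against cyclopamine crest, tyrp1a ran from -2.90 to 9.57 and slc24a5 from -10.16 to 2.23, both positive without cyclopamine replicate 3, where they were fitted against 0 reads. Scaling moved the median of all genes for slow muscle against untreated crest between -0.29 and 0.16. Levels over the raw total moved by more than 1 SD for mitfa, tyrp1b, slc45a2 and trpm1b in untreated crest (301, 195, 277 and 441 CPM). Levels of a few CPM are poorly determined in cyclopamine replicate 4, where many well-read genes had no count.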
